A study of Mus musculus with 8 samples.

Results

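Long intergenic noncoding RNA (lincRNA) genes were examined in maps of 5-hydroxymethylcytosine (5-hmC) from mouse pro-B cells. The members were the genes that GENCODE release M21 for mouse GRCm38 classes as lincRNA on chromosomes 1 to 19, each taken as its gene body with 2 kb on either side, after leaving out those whose body overlaps a protein-coding gene body. That rule kept 4725 of the 5209 lincRNA genes, among 51229 annotated genes of every class on these chromosomes. The member windows hold 115 Mb of known sequence, 4.81% of chromosomes 1 to 19. Most members carry only a catalogue name, and 3251 of them have a Gm symbol and 976 a Rik symbol. Gene bodies ranged from 105 to 666481 bp, with a median of 7634 bp.

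The study asked how loss of the class IIa histone deacetylase HDAC7, a repressor that guards B cell identity, alters 5-hmC in early B cells. DNA from B220+CD43+IgM- pro-B cells sorted from the bone marrow of C57BL/6 mice aged 4 to 6 weeks was sheared to fragments of 350 bp, immunoprecipitated with an antibody to 5-hmC and sequenced. The HDAC7-deficient group was labelled Hdac7 fl/- and the other group wild-type. In the study's methods the deficient mice carry mb1-Cre, a Cre knocked into the Cd79a locus that is active only in the B lineage, and the controls called wild-type are Hdac7 +/- littermates, so animals of both groups carry a null Hdac7 allele. Each group had 2 libraries, and for each library the deposited file listed positions of peaks and nothing else. The labels do not say whether a library came from 1 mouse or from several, and p-values below measure only the spread between these libraries.

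LincRNAs are spliced, polyadenylated transcripts with little coding potential that are transcribed from their own promoters between coding genes. Some act in the nucleus on chromatin or on nuclear bodies, and others serve mainly as precursors of microRNAs or small nucleolar RNAs. 5-hmC is made from 5-methylcytosine by the TET dioxygenases, mostly at CpG, and is known to accumulate in gene bodies and at enhancers, while promoters in CpG islands usually carry little of it.

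Bases under a peak in all 4 libraries made up 1.42% of the windows. To show examples of such sequence, the longest stretches of 80 to 300 bp that fell under a peak in all 4 libraries were taken from the members on the gene lists described below and from the 5 members with the highest coverage. Of the 50 members searched, 30 held at least 1 stretch of that length, 107 in all. The 7 longest, at most 1 per member, are printed 5′ to 3′ on the strand of the gene from the GRCm38 genome, with CpG in capitals.
Hotair: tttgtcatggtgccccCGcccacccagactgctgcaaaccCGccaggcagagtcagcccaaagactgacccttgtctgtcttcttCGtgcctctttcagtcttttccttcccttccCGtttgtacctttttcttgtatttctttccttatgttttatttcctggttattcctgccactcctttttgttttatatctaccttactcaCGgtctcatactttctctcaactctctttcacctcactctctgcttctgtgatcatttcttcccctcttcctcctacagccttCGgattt
Meg3: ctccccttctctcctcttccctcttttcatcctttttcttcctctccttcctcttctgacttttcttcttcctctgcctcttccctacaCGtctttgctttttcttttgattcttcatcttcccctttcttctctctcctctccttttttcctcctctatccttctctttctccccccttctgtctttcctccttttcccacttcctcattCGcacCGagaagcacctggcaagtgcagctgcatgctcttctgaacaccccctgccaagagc
BC043934: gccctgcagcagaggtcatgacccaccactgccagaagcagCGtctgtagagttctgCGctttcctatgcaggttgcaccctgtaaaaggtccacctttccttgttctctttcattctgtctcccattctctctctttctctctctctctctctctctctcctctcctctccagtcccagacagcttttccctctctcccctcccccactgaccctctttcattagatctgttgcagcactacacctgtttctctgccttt
Rmst: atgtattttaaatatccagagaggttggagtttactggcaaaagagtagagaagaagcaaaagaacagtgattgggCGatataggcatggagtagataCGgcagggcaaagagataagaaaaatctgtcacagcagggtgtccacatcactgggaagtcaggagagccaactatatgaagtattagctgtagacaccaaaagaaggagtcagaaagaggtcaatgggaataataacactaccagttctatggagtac
Pvt1: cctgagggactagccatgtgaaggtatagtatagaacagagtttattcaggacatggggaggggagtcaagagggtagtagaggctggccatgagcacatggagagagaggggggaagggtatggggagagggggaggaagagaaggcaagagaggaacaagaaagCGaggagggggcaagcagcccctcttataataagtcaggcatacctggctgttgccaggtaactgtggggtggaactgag
Trp53cor1: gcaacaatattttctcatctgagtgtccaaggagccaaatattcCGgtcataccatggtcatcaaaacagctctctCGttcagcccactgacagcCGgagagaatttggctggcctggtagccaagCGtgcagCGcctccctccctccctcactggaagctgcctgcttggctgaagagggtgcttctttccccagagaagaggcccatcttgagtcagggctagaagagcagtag
5430431A17Rik: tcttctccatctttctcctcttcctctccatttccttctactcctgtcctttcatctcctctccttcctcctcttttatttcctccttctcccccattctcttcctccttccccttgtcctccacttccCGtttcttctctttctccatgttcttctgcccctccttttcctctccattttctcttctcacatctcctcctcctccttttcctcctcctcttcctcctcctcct
The Hotair stretch (chr15:102947175-102947470) lay in an intron 0.408 kb from the start of the gene and held 6 CpG in 296 bp. The Meg3 stretch (chr12:109572529-109572801) lay in the flank downstream of the gene, as did that of BC043934 (chr9:96435094-96435354). The stretches of Rmst (chr10:92151186-92151442), Pvt1 (chr15:62061459-62061704), Trp53cor1 (chr17:29062382-29062617) and 5430431A17Rik (chr7:44475876-44476109) were intronic. What several of them have in common can be read from the letters: long runs of pyrimidines, or of purines on the other strand. In Meg3 the longest such run was 41 bases and in 5430431A17Rik it was 42, where runs of at least 12 took up 71.8% of the stretch. Such runs took up less of the Hotair and Trp53cor1 stretches, 12.8% and 6.78%. The Rmst stretch had no run of at least 12, with a longest run of 11. CpG was sparse in some stretches, with 1 CpG in the 246 bp of Pvt1 and 1 in the 234 bp of 5430431A17Rik. It was denser in Hotair, Meg3 and Trp53cor1, with 2.03, 1.10 and 2.12 CpG per 100 bp, against 0.843 in lincRNA windows as a whole. The other stretches lay below that value, and all printed bases together had 1.11.

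Over the lincRNA windows as a whole the pattern was present but weaker, and most bases under peaks lay outside such runs. Runs of at least 12 took up 27.1% of the printed bases. Bases in runs of at least 12 purines or at least 12 pyrimidines, which read the same from either strand, made up 2.81% of window bases with no peak in any library, 4.72% of those with a peak in 1 library, 7.18% in 2, 10.4% in 3 and 13.2% in all 4. Within each library the share was higher under peaks than outside them. It was 10.1% against 3.05% in wild-type 1, 6.51% against 3.39% in wild-type 2, 9.33% against 3.14% in HDAC7-deficient 1 and 6.80% against 3.37% in HDAC7-deficient 2. The mean difference was 4.95 percentage points (SD 1.96, n = 4, exact sign-flip permutation test, two-sided p = 0.125, the smallest that 4 libraries allow). Over all of chromosomes 1 to 19 the share climbed from 2.64% to 12.9% in the same steps, so the gradient was not particular to lincRNA genes. This measure and the repeat measure below were chosen after seeing the sequences.

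CpG content followed another course. CpG per 100 bp was 0.836 in window bases with no peak, 0.904 with a peak in 1 library, 0.848 in 2, 0.795 in 3 and 0.743 in all 4, so the bases shared by every library were the poorest in CpG. Per library, CpG per 100 bp under peaks and outside them was 0.847 and 0.842 in wild-type 1, 0.842 and 0.843 in wild-type 2, 0.838 and 0.843 in HDAC7-deficient 1, and 0.821 and 0.846 in HDAC7-deficient 2. The difference was above 0 in 1 library and below it in 3 (mean -0.00669, SD 0.0128, n = 4, exact sign-flip permutation test, two-sided p = 0.375). A difference in CpG density between peaks and the sequence around them was not detected in lincRNA windows. Over all of chromosomes 1 to 19, CpG per 100 bp was 0.844, 0.915, 0.863, 0.796 and 0.753 from 0 to 4 libraries, the same course. In lincRNA windows soft-masked bases, which the reference genome marks as repeats, took 39.8%, 34.2%, 38.5% and 34.4% of the bases under peaks in wild-type 1, wild-type 2, HDAC7-deficient 1 and HDAC7-deficient 2, against 30.3% to 30.9% outside the peaks, higher in 4 of 4 libraries (exact sign-flip permutation p = 0.125). Over all of chromosomes 1 to 19 these shares were 40.4%, 35.6%, 39.3% and 35.6%, against 32.8% to 33.2%, so neither pattern was particular to lincRNA genes.

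**Figure D1:**
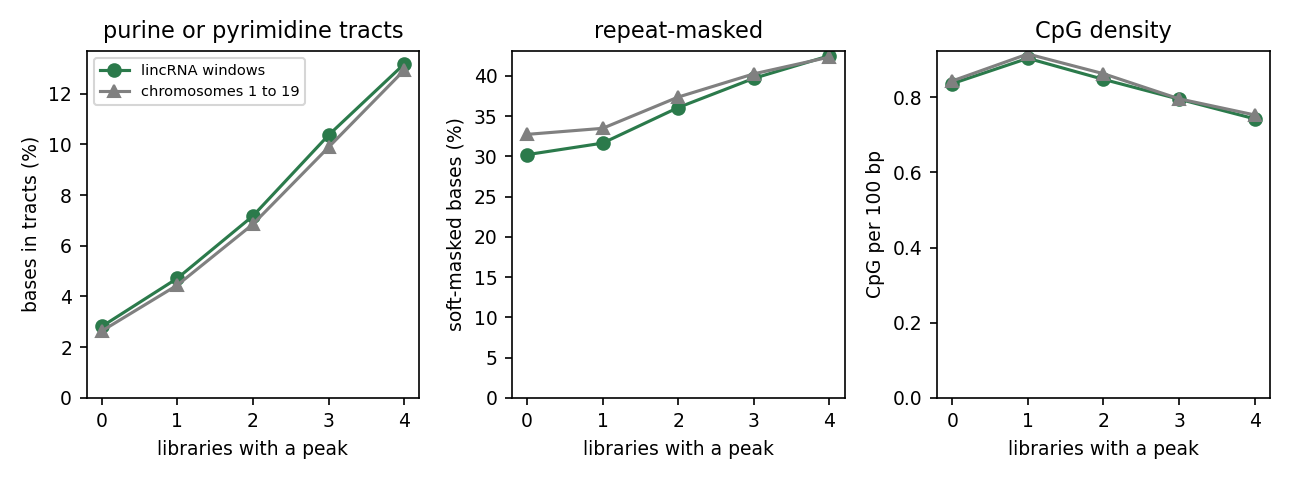
Sequence content of known bases by the number of libraries (0 to 4) with a peak over them, for lincRNA windows (green circles) and for chromosomes 1 to 19 (grey triangles). The left panel gives the percent of bases in purine or pyrimidine runs of at least 12, the middle panel the percent soft-masked and the right panel CpG per 100 bp. In lincRNA windows the tract share climbs from 2.81% to 13.2% and CpG falls from 0.904 to 0.743 between 1 and 4 libraries.

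The libraries differed in ways that the groups did not explain. Replicate 1 of each group had lower coverage than replicate 2 of either group. HDAC7-deficient 2 stood apart on chromosomes 14 to 19, where 12.2% of lincRNA window bases lay under its peaks, against 10.5% on chromosomes 1 to 13. The other libraries differed little between these chromosome sets, with 9.87% and 9.71% in wild-type 1, 11.0% and 11.1% in wild-type 2. HDAC7-deficient 1 had 9.63% and 9.62%. The same step was seen over all sequence, where HDAC7-deficient 2 had 11.97% on chromosomes 14 to 19 and 10.2% on chromosomes 1 to 13. No label gives a reason. Coverage by group and the members higher or lower in covered bases are therefore also given for chromosomes 1 to 13. Other results are for chromosomes 1 to 19 unless stated.

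Peaks were common in lincRNA windows in every library. There were 62143 peaks in wild-type 1, 66629 in wild-type 2, 67846 in HDAC7-deficient 1 and 63563 in HDAC7-deficient 2, between 5.39 and 5.89 per 10 kb, or 4.95% to 4.99% of each library's peaks on these chromosomes. The groups overlapped. The mean was 64386 (SD 3172, n = 2) in wild-type and 65704.5 (SD 3029, n = 2) in HDAC7-deficient libraries, a ratio of 1.02 (propagated SD 0.0688, exact permutation test, two-sided p = 0.667, where the smallest p that 2 against 2 allows is 0.333). A peak was present in 4629, 4616, 4629 and 4593 members in wild-type 1, wild-type 2, HDAC7-deficient 1 and HDAC7-deficient 2, and 4455 members, 94.3%, had a peak in every library.

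Coverage, the percent of known window bases under peaks, was 9.75% in wild-type 1, 11.1% in wild-type 2, 9.62% in HDAC7-deficient 1 and 10.9% in HDAC7-deficient 2. Again the groups overlapped, with the replicates of a group further apart than the group means. The means were 10.4% (SD 0.931, n = 2) and 10.3% (SD 0.904, n = 2), a difference of -0.145 points (SD 1.30, exact permutation p = 0.667). That SD comes from the step between replicates 1 and replicates 2, which went the same way in both groups. Dividing by the coverage of all of chromosomes 1 to 19 removes the general level of a library. This relative coverage was 1.036, 1.0275, 1.034 and 1.026 in the same order. Replicates 1 were still apart from replicates 2, here above them, and by more than the groups were. The group means differed by -0.00136 (SD 0.00813, exact permutation p = 0.667). On chromosomes 1 to 13 alone, lincRNA coverage was 10.4% (SD 0.962) in wild-type and 10.04% (SD 0.602) in HDAC7-deficient libraries. On chromosomes 14 to 19 the direction of the coverage difference turned, with a difference of 0.469 points (SD 2.01). A change of lincRNA coverage with HDAC7 loss was not detected, but a test whose smallest p is 0.333 cannot decide the question. Over chromosomes 1 to 19 the HDAC7-deficient library was slightly lower within each replicate number, in coverage and in relative coverage.

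LincRNA windows were covered slightly more than protein-coding windows and than sequence outside all gene windows, in each library. Protein-coding windows had 9.45%, 10.8%, 9.28% and 10.4% in wild-type 1, wild-type 2, HDAC7-deficient 1 and HDAC7-deficient 2, and sequence outside gene windows had 9.39%, 10.8%, 9.34% and 10.8%. The lincRNA excess was 0.353 points over protein-coding windows (SD 0.0815, n = 4, from 0.296 to 0.471) and 0.249 points over sequence outside gene windows (SD 0.119, n = 4, from 0.0804 to 0.358). Both were positive in 4 of 4 libraries (exact sign-flip permutation test, two-sided p = 0.125 for each, the smallest possible). The soft-masked share, 31.3% of lincRNA windows, 27.1% of protein-coding windows and 39.5% outside, differed with these classes, and its part in the result was not tested.

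Within lincRNA genes, coverage was highest at the start. In the 1 kb centred on the annotated starts it was 11.1%, 12.2%, 10.9% and 11.7% in wild-type 1, wild-type 2, HDAC7-deficient 1 and HDAC7-deficient 2, against 9.69%, 11.0%, 9.57% and 10.9% in the rest of the windows. The difference, examined after seeing the data, was 1.19 points (SD 0.282, n = 4, higher in 4 of 4 libraries, exact sign-flip permutation p = 0.125). At the 3′ ends coverage was below that of the windows, at 8.73%, 10.3%, 8.65% and 9.80%.

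The starts were then split by CpG content. A start was called CpG-rich where its 1 kb had a GC share of at least 0.5 and an observed over expected CpG ratio of at least 0.6, which held for 265 members, 5.61%, against 45.7% of protein-coding genes. CpG-rich lincRNA starts had 9.57%, 10.5%, 10.3% and 10.9% coverage in wild-type 1, wild-type 2, HDAC7-deficient 1 and HDAC7-deficient 2, and the 4460 CpG-poor starts had 11.2%, 12.3%, 10.9% and 11.7%. CpG-rich starts were lower than CpG-poor starts in 4 of 4 libraries, by 1.23 points (SD 0.613, n = 4, exact sign-flip permutation p = 0.125), although they held 7.18 CpG per 100 bp against 1.28. The lincRNA windows as a whole had 9.75%, 11.1%, 9.62% and 10.9%. Against these, CpG-rich starts were lower in both wild-type libraries, higher in HDAC7-deficient 1 and level in HDAC7-deficient 2. Between the groups the rich starts overlapped, with means of 10.03% (SD 0.650, n = 2) and 10.6% (SD 0.440, n = 2) without and with the loss of HDAC7 (exact permutation p = 0.667).

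CpG-poor lincRNA starts also exceeded the CpG-poor starts of protein-coding genes, which had 9.97%, 11.5%, 9.92% and 10.2%. The excess was 1.15 points (SD 0.281, n = 4, 4 of 4 libraries, exact sign-flip permutation p = 0.125, a comparison added after seeing the data). In the 250 bp just upstream of CpG-poor coding starts coverage was 9.35%, 10.7%, 9.16% and 9.35%, while at the same place upstream of CpG-poor lincRNA starts it was 10.8%, 12.02%, 10.5% and 11.2%.

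**Figure D2:**
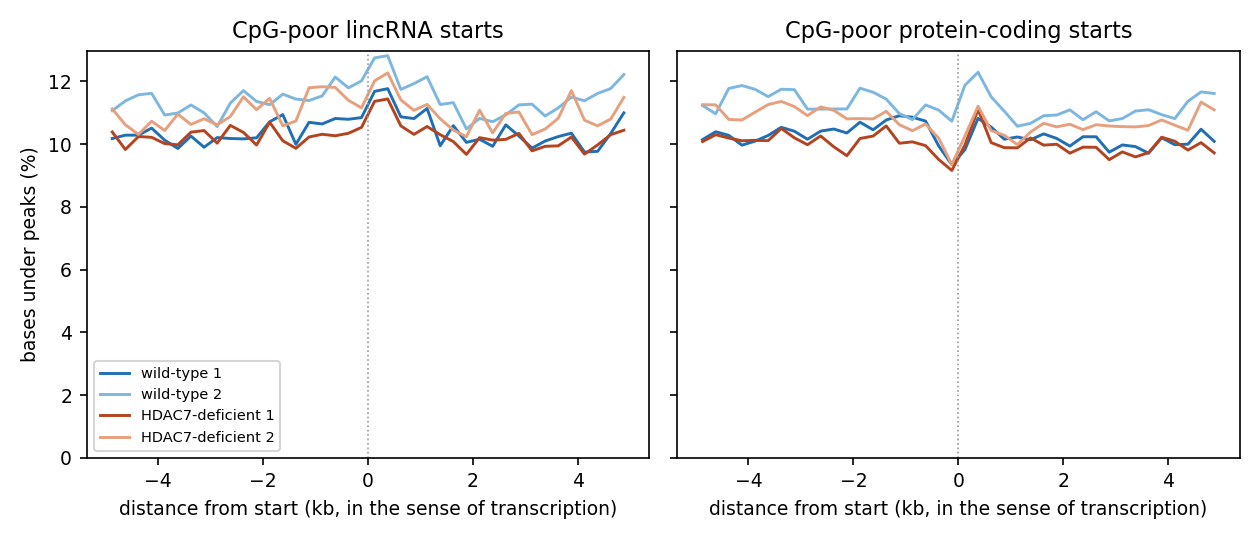
Percent of bases under peaks in bins of 250 bp from 5 kb upstream to 5 kb downstream of CpG-poor starts of lincRNA genes (left) and of protein-coding genes (right), with 1 line per library. In each library the lincRNA line is highest in the 500 bp after the start, between 11.4% and 12.8% by library.

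Exons were covered less than introns. Exon coverage was 8.64% in wild-type 1, 10.3% in wild-type 2, 8.48% in HDAC7-deficient 1 and 10.1% in HDAC7-deficient 2, and intron coverage was 9.72%, 11.1%, 9.62% and 10.9%. The deficit of -0.943 points (SD 0.200, n = 4) had the same sign in 4 of 4 libraries (exact sign-flip permutation p = 0.125). Exon bases within 500 bp of the start had 10.7%, 12.4%, 10.7% and 11.99%, and exon bases elsewhere 8.23%, 9.89%, 8.05% and 9.79%. Exons were also less repetitive, with 20.3% of their bases soft-masked against 32.8% in introns, and the part of this in the difference was not tested.

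**Figure D3:**
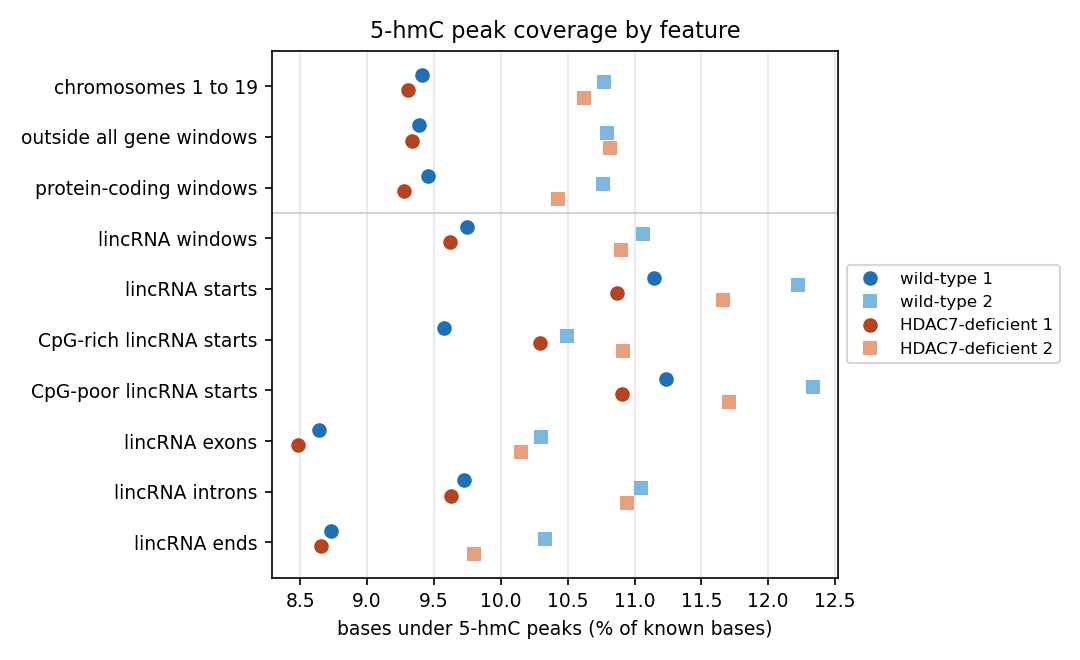
Percent of known bases under peaks in each library, for 3 reference classes above the grey line and for lincRNA features below it. Circles are replicate 1 and squares replicate 2, blue for wild-type and orange for HDAC7-deficient, and the horizontal axis does not start at 0. In each library lincRNA starts lie above lincRNA windows, while exons and ends lie below them.

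Members varied far more among themselves than the libraries did. In wild-type 2 the lower and upper quartiles of member coverage were 7.74% and 14.3%, and the highest 5% of members were above 21.3%. Spearman's rho of coverage over the 4725 members was 0.677 between wild-type 1 and HDAC7-deficient 1. Replicates of the wild-type group gave 0.498, and those of the HDAC7-deficient group 0.560. The remaining pairs lay between 0.463 and 0.547. These are correlations across genes that share library and depth, and among pairs of libraries with the same replicate number, replicates 1 had the highest rho of all and replicates 2 the lowest, 0.463. By CpG density of the window, median coverage was 8.57% in the lowest quartile of members and 10.4% in the highest in wild-type 1, 10.3% and 11.1% in wild-type 2, 8.87% and 9.98% in HDAC7-deficient 1 and 10.4% in both quartiles in HDAC7-deficient 2. The highest quartile was thus above the lowest in 3 of the 4 libraries, but the rise was not steady. The third quartile had 10.5%, 11.4%, 10.2% and 10.39% in the same order. This was above the highest quartile in each library, though in HDAC7-deficient 2 by little.

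The lowest coverage was found where sequence recurs on the same chromosome. For each member window, 31-base words were read at regular intervals. The percent with a further copy on the same chromosome, on either strand, was computed, with a median of 4.55%. The further copy could lie inside the window itself. In the 3670 members under 10% the median coverage was 10.1%, 11.2%, 9.89% and 10.6% in wild-type 1, wild-type 2, HDAC7-deficient 1 and HDAC7-deficient 2. In the 154 members over 50% it was 2.70%, 3.63%, 2.69% and 3.43%, lower in each library. Of the 23 members without a peak in any library, 20 were in that group of 154. The longest of them were Gm48105 on chromosome 14, with a window of 28477 bp, and Gm33847 and 4930558F17Rik on chromosome 5, with windows of 20657 and 20656 bp, and 97.8%, 98.5% and 99.5% of their words recurred. The other 3 lay below 50%, the lowest at 2.45%, and the part of recurring sequence in the missing peaks was not tested.

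The 5 members with the highest mean coverage and a window of at least 5 kb were 5430431A17Rik, Gm35371, Gm32235, Gm48901 and BC043934, none of which has a known function. 5430431A17Rik on chromosome 7 had 26.5%, 32.9%, 50.8% and 31.7% of its window under peaks in wild-type 1, wild-type 2, HDAC7-deficient 1 and HDAC7-deficient 2, and Gm35371 on chromosome 9 had 36.5%, 45.4%, 26.3% and 32.1%. These were high in every library, but single values differed widely between libraries of 1 group.

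Per gene, the libraries of the 2 groups did not overlap in covered bases for 1426 members. Both HDAC7-deficient libraries were above both wild-type libraries in 603 members, 12.8%, where 12.2% of all 51229 genes were, and below them in 823 members, 17.4%, where 16.6% of all genes were. By number of peaks instead of bases, 580 members were higher, 12.3% against 10.8% of all genes, and 460 were lower, 9.74% against 9.48%. Both measures were higher in 224 members and lower in 255, 4.74% and 5.397%, against 4.48% and 5.27% of all genes. These shares lie close to those of genes at large, and the counts are not a result about lincRNA genes. On chromosomes 1 to 13, 441 members were higher, 12.1%, and 678 lower, 18.6%, with 11.7% and 17.6% of all genes there. On chromosomes 14 to 19, 162 were higher, 14.97%, and 145 lower, 13.4%, with 14% and 13.1% of all genes there. HDAC7-deficient 2 stood apart on these chromosomes, and its part in the different balance was not tested. The median difference over members was -0.277 points, and over all genes it was -0.240.

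When the peaks of the libraries were merged into regions, 121316 regions touched lincRNA windows, and 62968 of them, 51.9%, came from 1 library alone. Regions present in all 4 libraries numbered 15765, 12.995%, against 12.6% of regions on chromosomes 1 to 19. Regions that only the HDAC7-deficient group had, in each of its libraries, numbered 3469, 2.86%, against 2.91%, and those that only the wild-type group had, in each of its libraries, numbered 2991, 2.47%, against 2.43%. Gained and lost regions were thus about as frequent in lincRNA windows as elsewhere.

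Known lincRNAs were grouped into lists by role, and 47 members were on at least 1 list. Coverage was higher in both HDAC7-deficient libraries for 7 of them and lower for 13, with a median difference of -0.633 points, beside 603, 823 and -0.277 points over all 4725 members. In the list of nuclear lincRNAs 2 of 2 were higher, of 3 imprinted lincRNAs none was higher or lower, of 3 haematopoietic lincRNAs 1 was higher and of 4 lincRNAs of growth, p53 and chromatin 1 was higher and 2 were lower. Hosts of small RNAs had 1 higher and 3 lower of 11, and neural and developmental lincRNAs 3 higher and 9 lower of 29. The exact permutation test cannot go below 0.333 with 2 libraries a group, no other test was run on single genes, and the values that follow are descriptions.

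Malat1, an abundant nuclear RNA found in speckles that host splicing factors, is a gene of 6.98 kb on the minus strand of chromosome 19 (5795690 to 5802672). Its window held 9 peaks in wild-type 1, 9 in wild-type 2, 14 in HDAC7-deficient 1 and 15 in HDAC7-deficient 2, over 1593, 1465, 2758 and 3776 bp. As a share of the window this was 14.5%, 13.3%, 25.1% and 34.4%. Both HDAC7-deficient libraries were thus above both wild-type libraries in peaks and in bases, with means of 29.7% (SD 6.55, n = 2) and 13.9% (SD 0.824, n = 2), the third-largest difference upward among members with a window of at least 5 kb whose groups did not overlap in both measures. In the gene body alone the covered bases were 1054, 1037, 2562 and 2824. With 10 kb on each side they were 3103, 3260, 3623 and 4702. Covered bases did not overlap between the groups in either window, while peaks with 10 kb on each side, 20, 22, 21 and 22, did. Both windows share bases with the window used for the ranking, so they are no separate support. The sequence that only the 10 kb window adds was covered less in both HDAC7-deficient libraries than in either wild-type library. The members on chromosome 19 together had 10.3%, 11.0%, 10.1% and 12.3% coverage in these libraries, and the part of this in the Malat1 values was not tested.

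Neat1, the architectural RNA of paraspeckles, lies close by on the same strand (5824708 to 5845478) and differed less. It had 25, 14, 20 and 17 peaks over 2771, 2309, 2933 and 2974 bp in wild-type 1, wild-type 2, HDAC7-deficient 1 and HDAC7-deficient 2. The groups overlapped in peaks but not in bases, with means of 10.3% (SD 1.32, n = 2) and 11.9% (SD 0.117, n = 2). With 10 kb on each side they overlapped in bases too, at 5796, 3645, 4673 and 4523 bp.

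Among imprinted lincRNAs, H19, a maternally expressed RNA that is also the precursor of a microRNA, stood out for its level rather than for a difference. Its window on chromosome 7 (gene 142575529 to 142578143, minus strand) had 29.1%, 32.7%, 20.5% and 30.8% under peaks in wild-type 1, wild-type 2, HDAC7-deficient 1 and HDAC7-deficient 2, the 10th highest mean among 4417 members with a window of at least 5 kb. The groups overlapped. Meg3, the maternally expressed RNA of the Dlk1 domain, had 6290, 3300, 7434 and 5515 covered bases, and Mirg, the microRNA host of the same domain, had 1500, 2649, 1644 and 2539. Neither separated the groups in covered bases. By number of peaks Meg3 was higher in both HDAC7-deficient libraries, with 27, 19, 32 and 28, while Mirg overlapped.

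**Figure D4:**
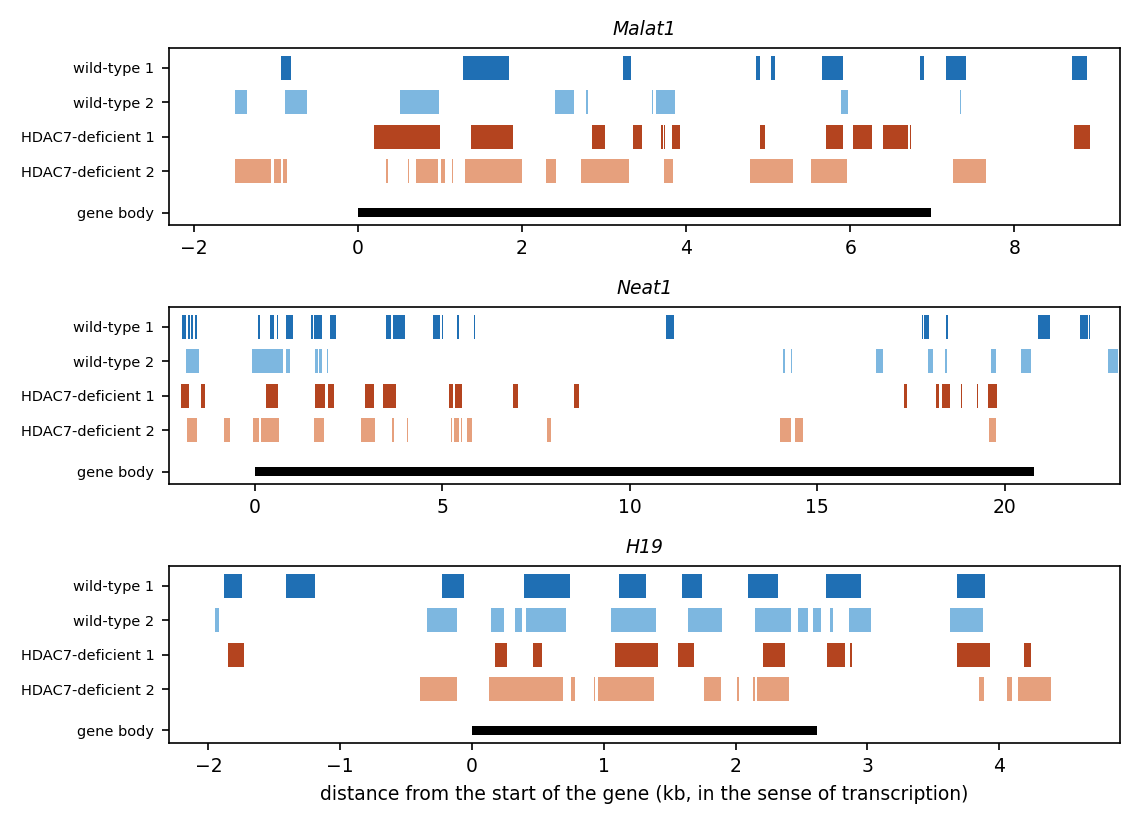
Peaks in each library (coloured blocks) in the windows of Malat1, Neat1 and H19, against the distance in kb from the start of the gene in the sense of transcription, with the gene body in black. Over the Malat1 body peaks cover 2562 and 2824 bp in the HDAC7-deficient libraries and 1054 and 1037 bp in the wild-type libraries.

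Of the haematopoietic hosts, Mir142hg, the precursor of a microRNA made throughout the blood lineages, was higher in both HDAC7-deficient libraries. Its window on chromosome 11 (gene 87755577 to 87757270, plus strand) had 577, 455, 1346 and 884 covered bases in wild-type 1, wild-type 2, HDAC7-deficient 1 and HDAC7-deficient 2. That is 10.1%, 7.99%, 23.6% and 15.5% of the window, while the number of peaks, 7, 6, 9 and 7, overlapped. Peaks of at least 200 bp covered 0, 0, 449 and 602 bp of it. Mir155hg, host of a microRNA induced on B cell activation, had 908, 1107, 799 and 3210 bp, where only HDAC7-deficient 2 was high, and lies on chromosome 16, where that library was high overall. Mir17hg, host of the proliferative miR-17-92 cluster, had 251, 833, 533 and 1081 bp, and its groups overlapped.

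In the list of growth, p53 and chromatin, Lncpint, a p53-induced RNA that binds the Polycomb complex PRC2, had 17092, 16221, 18031 and 17988 bp under peaks in wild-type 1, wild-type 2, HDAC7-deficient 1 and HDAC7-deficient 2, and did not overlap between groups. The difference was small, 12.7% (SD 0.0214, n = 2) against 11.7% (SD 0.434, n = 2). Pvt1, the neighbour of Myc, had 38671, 38665, 33079 and 38288 bp, lower in both HDAC7-deficient libraries, though HDAC7-deficient 2 was lower by little. Trp53cor1, known as lincRNA-p21, was covered highly in each library, with 22.9%, 18.98%, 20.6% and 23.9%.

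Among the hosts and developmental lincRNAs, Mir124a-1hg, host of a neuronal microRNA, had 1943, 1528, 751 and 890 bp and 8, 12, 6 and 6 peaks in wild-type 1, wild-type 2, HDAC7-deficient 1 and HDAC7-deficient 2. It was lower in both HDAC7-deficient libraries by both measures, with 7.72% (SD 0.925, n = 2) against 16.3% (SD 2.76, n = 2). Miat, a neural RNA of nuclear foci, had 2678, 3392, 2383 and 2200 bp, and Pantr1, beside the neural factor gene Pou3f3, had 12928, 12850, 9768 and 11404 bp, lower in both HDAC7-deficient libraries. Hotair, transcribed from the HoxC cluster, did not separate in covered bases, with 19.9%, 11.98%, 23.8% and 19.8% of the window, although its peaks, 6, 4, 8 and 7, did. The Hotair start was covered over 682, 418, 813 and 754 of its 1000 bp, more in both HDAC7-deficient libraries, and most of the stretch printed above lies there.

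The 20 Platr genes, named for transcripts associated with pluripotency, ranged in mean coverage from 0.534% to 19.4%. Of these 3 were higher and 5 lower in both HDAC7-deficient libraries, with a median difference of -0.177 points, beside 12.8% higher and 17.4% lower over all members. Platr2 and Platr30 were the lowest, with means below 1%, and 96.1% and 92.6% of their 31-base words recurred on their chromosomes.

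**Figure D5:**
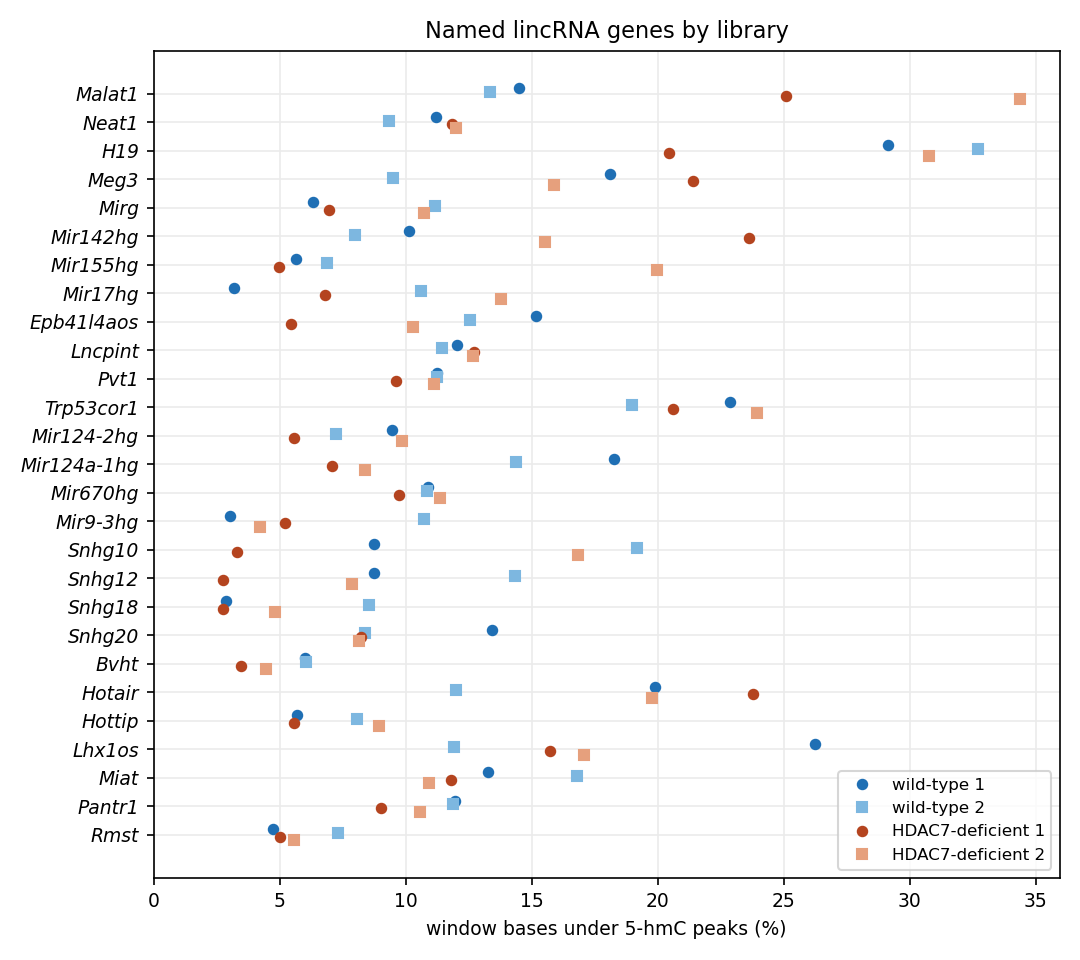
Percent of window bases under peaks in each library for the listed lincRNAs other than the Platr genes, by list from nuclear at the top to developmental at the bottom. Circles are replicate 1 and squares replicate 2, blue for wild-type and orange for HDAC7-deficient. Malat1 and Mir142hg have both orange points to the right of both blue points, and Mir124a-1hg has them to the left.

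The members with the largest differences were chosen by those differences, so their values are given as a description only. Gm42418 on chromosome 17 (39846958 to 39848788, plus strand) had the largest difference upward, with 11, 216, 349 and 4435 bp in wild-type 1, wild-type 2, HDAC7-deficient 1 and HDAC7-deficient 2. Nearly all of that came from HDAC7-deficient 2, where 76.1% of the window was covered, against 5.99% in HDAC7-deficient 1. The annotation places a ribosomal RNA gene, CT010467.1, and another lincRNA gene, AY036118, over it, and its window is dense in CpG, with 6.98 per 100 bp. Ribosomal DNA is present in many copies outside the assembled chromosomes, and how its reads bear on this value was not tested.

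2810433D01Rik on chromosome 11 (102619796 to 102624416, minus strand) came next and was high in both HDAC7-deficient libraries. It had 2, 2, 9 and 5 peaks over 254, 263, 1859 and 1473 bp in wild-type 1, wild-type 2, HDAC7-deficient 1 and HDAC7-deficient 2, or 2.95%, 3.05%, 21.6% and 17.1% of the window. The wild-type libraries were low and alike, and chromosome 11 was not among those where HDAC7-deficient 2 stood apart. In the gene body alone the covered bases were 145, 18, 595 and 298, and in each library but wild-type 1 most of the covered bases lay in the flanks. With 10 kb on each side the groups overlapped, at 2287, 2072, 3622 and 2283 bp. Malat1 followed, then Gm35019 on chromosome 15, with 24.6%, 13.6%, 29.0% and 38.9%, and Gm47389 on chromosome 10, with 14.9%, 6.95%, 25.7% and 22.6%. In the body of Gm47389 alone the groups overlapped, at 0, 208, 104 and 186 bp.

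Among the ranked members the largest difference downward was that of Gm49304 on chromosome 14 (47991528 to 47993803, minus strand), with 2085, 1958, 782 and 683 bp or 33.2%, 31.2%, 12.5% and 10.9% in wild-type 1, wild-type 2, HDAC7-deficient 1 and HDAC7-deficient 2. Both HDAC7-deficient libraries were far below the wild-type ones. The members on chromosome 14 together had 9.44%, 10.8%, 9.34% and 11.8% coverage, and the part of this in the values was not tested. Gm15889 on chromosome 8 followed, with 35.5%, 30.2%, 13.8% and 13.7%. Gm40723, Gm44753 and Gm14228 differed by -12.5, -12.1 and -11.8 points, and the body of Gm14228 held 0 covered bases in each library, so its difference lay in the flanks.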

How the data were processed

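The deposited files hold only positions: chromosome, start and end of each peak, unit "other" (no score, count or signal), on mm10, per the labels, and were used as given. In the authors' methods reads were trimmed (cutadapt 1.6 run by Trim Galore 0.4.2, per the labels' processing notes), mapped (methods: bwa; notes: Bowtie2), and peaks were called per library with the MACS2 bdgpeakcall routine, after which peaks meeting an input peak were removed. Input libraries were not analysed here. No deposited peak was narrower than 10 bp, and none lay closer than 11 bp to the next. A peak list holds no read counts, so sequencing depth behind each value is unknown, and a low percent can reflect depth.

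Peaks were intersected (at least 1 bp) with GENCODE M21 gene windows and the GRCm38 sequence, within whose contigs every peak lies, using numpy 2.4.6 and pandas 2.3.3 in Python 3.11.15. Chromosomes 1 to 19 were used. Group comparisons used the exact permutation test of 2 against 2 libraries, and comparisons within libraries the exact sign-flip test, both two-sided, on covered percent. The interval code was tested on simulated peaks. Soft-masking is that of the RefSeq FASTA. Members and lists were chosen with earlier results of these data known. Named members were all those on the lists, the 5 largest differences upward and 5 downward with a window of at least 5 kb and no overlap in both measures, the 5 highest, and the 3 longest without a peak. No stretch of chromosome 18 was searched for printed sequences. A wider window, wider or merged peaks, chromosome subsets and each library left out were tried as alternatives.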

Additional observations from a re-analysis of the deposited data

How the results depend on the processing

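Of 74 alternatives across the results, other than leaving out a library, 67 kept the direction or, for a count, stayed within 1.5 times. The lincRNA excess over protein-coding and intergenic windows, the deficit of CpG-rich against CpG-poor starts, the exon deficit and the CpG difference kept their sign in each of them and without any library. Their size moved: the excess over intergenic sequence was 0.0909 points with peaks of at least 200 bp and 0.417 with 10 kb on each side, and the CpG difference -0.0344 with peaks of at least 200 bp and -0.00201 on chromosomes 14 to 19. The HDAC7 comparisons did not. The ratio of peaks was 0.960 with peaks of at least 200 bp. The coverage difference was 0.469 on chromosomes 14 to 19, a subset added after seeing the data. The difference in relative coverage was 2.88e-05 with peaks of at least 200 bp and 0.00219 in gene bodies alone. Lower members numbered 460 by number of peaks. Member by member, replicate numbers were not shown to pair the libraries (Pearson's r of deviations 0.0720 over 4725 members). Coverage of all windows did go with replicate number. It was 9.75% and 9.62% in replicates 1 of wild-type and HDAC7-deficient, and 11.1% and 10.9% in replicates 2. Within each number the HDAC7-deficient library was slightly lower. What the replicate number stands for was not tested. Pairing by number as a replicate block gave a peak ratio of 1.02, the same coverage differences, and 1026 higher and 1340 lower members.

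Leaving out 1 library at a time, which leaves that group with 1 library and no test, gave a peak ratio of 0.986 to 1.06 (below 1 without wild-type 1 and without HDAC7-deficient 1), a coverage difference of -0.803 to 0.513 (above 0 without wild-type 2 and without HDAC7-deficient 1), a relative coverage difference of -0.00548 to 0.00276 (above 0 without wild-type 1 and without HDAC7-deficient 2), 1065 to 1638 higher members and 1397 to 2026 lower members, since fewer libraries have to agree. The excess over protein-coding windows ranged from 0.314 to 0.372, that over intergenic sequence from 0.212 to 0.305, CpG-rich minus CpG-poor starts from -1.43 to -1.02, exons minus introns from -1.01 to -0.877 and CpG density from -0.0105 to -0.000598. Peak lists without scores limit each value: a peak just below the caller's threshold counts as none.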
